A study of Mus musculus with 2 samples.

Results

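Mir126a, Mir221 and Mir222 are 3 microRNA genes known from blood vessels, and their levels were read here from whole mouse heart at embryonic day 12.5. They were taken by their GENCODE M21 symbols from tables of 1973 microRNA genes, in which all 3 had a row. The hearts came from embryos of strain B6NCrl, with males and females pooled. The series holds 1 group, made of 2 biological replicates, with no treatment or mutation in the labels and 1 library each, so no condition was contrasted and no test between groups could be made. The labels give both replicates the same donor record and do not say how many embryos were pooled. Small RNA of a size range labelled below 30 was sequenced from total RNA.

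Mature microRNAs are short RNAs that are cut from a hairpin and guide Argonaute proteins to messenger RNAs, mainly by pairing through their seed, bases 2 to 8. Mir126a lies in Egfl7, a gene for a protein that endothelial cells secrete. Its microRNA, miR-126, is known from endothelium, where it lowers Spred1 and Pik3r2, brakes on growth factor signalling, and where its loss in mice causes leaky vessels. It is also known from early blood cells and platelets. Mir221 and Mir222 form a pair on the X chromosome and are known from both endothelium and vascular smooth muscle, with Kit, the receptor of stem cell factor, and the cell cycle inhibitor Cdkn1b among their targets.

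The mature sequences below come from RefSeq on GRCm38.p6, read 5′ to 3′ with the seed in capitals. They are shown because the seeds of the 3′ arms place 2 of the 3 genes in 1 target family and leave the third alone. The RefSeq sequences used here lack the 5′ arms of Mir126a and Mir222, so the seeds of those arms were not compared.
miR-126a-3p: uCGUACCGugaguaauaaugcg
miR-221-3p: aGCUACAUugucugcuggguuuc
miR-221-5p: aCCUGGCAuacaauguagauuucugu
miR-222-3p: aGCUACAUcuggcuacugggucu
The first 8 bases of miR-221-3p and miR-222-3p are identical, and from the 5′ end 11 of 23 positions match, so every difference lies beyond the seed. Of 1679 mature microRNA names in the RefSeq table, 1 other has this seed, miR-1928, and its gene Mir1928 had 0 counts in both libraries. The seed of miR-126a-3p occurs in 0 other mature sequences of the table.

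The hairpins are shown next, with the mature arm from the 3′ side in capitals, because the counts are per hairpin gene and do not separate the arms.
Mir126a: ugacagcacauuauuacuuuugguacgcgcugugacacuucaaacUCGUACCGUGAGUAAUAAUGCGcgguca
Mir221: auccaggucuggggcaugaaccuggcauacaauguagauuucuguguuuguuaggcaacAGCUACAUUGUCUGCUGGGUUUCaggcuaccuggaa
Mir222: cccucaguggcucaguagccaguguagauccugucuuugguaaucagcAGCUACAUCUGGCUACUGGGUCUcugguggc
The Mir126a hairpin has 73 bases and a GC content of 45.2%, that of Mir221 95 bases and 47.4%, and that of Mir222 79 bases and 54.4%. The minimum free energies predicted by RNAfold were −31.2, −42.8 and −40.7 kcal/mol, in that order. No window of 22 bases from these hairpins occurs on the same strand of another annotated microRNA hairpin. The tables count no read that maps to more than 1 place, and no other annotated hairpin could take reads of 22 bases from these genes in this way. Matches elsewhere in the genome were not tested.

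Mir126a (ENSMUSG00000065540.1) lies on the plus strand of chromosome 2 from 26591357 to 26591429 on GRCm38. In GENCODE M21 it lies in an intron of 8 Egfl7 transcripts, counted as intron 1, 6 or 7 by transcript, and in exon 4 of 1 transcript with a retained intron. An intron of the overlapping gene Gm20532 also spans it. Mir221 (ENSMUSG00000065422.1) lies on the minus strand of chromosome X from 19146294 to 19146388, and Mir222 (ENSMUSG00000065471.1) on the same strand from 19146893 to 19146971, with 504 bases between the hairpins. Neither lies within another annotated gene, and the next one, the non-coding Gm14636, is 10009 bases from Mir222 on the same strand. Within 10 kb of a member, the only other annotated microRNA gene is Mir126b, opposite to Mir126a.

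Replicate 1 held 4478599 counts on the strand of a microRNA gene and replicate 2 held 5279908, called sense counts here. CPM, the unit of level used throughout, is the sense count divided by this total and scaled to a total of 1000000. With 0 counts, a gene could still have had a level of 0.670 CPM (replicate 1) or 0.568 CPM (replicate 2). Intervals are exact Clopper-Pearson or conditional binomial intervals at 95%. Such intervals and limits cover counting error only, since reads without molecular identifiers are not independent molecules. The p-values that would set the libraries apart were not computed, because each side would hold 1 library.

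Leaving out reads that fit several places, Mir126a was one of the most abundant microRNA genes of the embryonic heart. Mir221 and Mir222 were near the lower end of the 284 genes that reached 10 CPM in both libraries. Mir126a took 99.9% of the counts of the 3 genes in each library. In whole tissue, fewer cells of a type and less RNA per cell cannot be told apart, so these levels describe the heart as sampled and not a level per endothelial cell.

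Mir126a had 300174 counts in replicate 1 and 363098 in replicate 2. These are 67024 CPM (95% counting interval 66793 to 67256) and 68770 CPM (68554 to 68986), a mean of 67897 ± 1234 CPM (SD, n = 2). Both libraries thus gave about the same high level, 6.70% and 6.88% of all sense counts. The gene stood at place 5 of the order in both libraries. No other gene had a level between or across those 2 values, since the neighbours in the order lay apart from it in both libraries. Just above was Mir99a at 74065 and 72343 CPM, and just below the cardiomyocyte gene Mir208b at 51846 and 49990 CPM.

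Mir221 had 118 counts in replicate 1 and 133 in replicate 2. These are 26.3 CPM (95% counting interval 21.8 to 31.6) and 25.2 CPM (21.1 to 29.9), a mean of 25.8 ± 0.819 CPM (SD, n = 2). Mir222, its partner, had 63 and 99 counts, at 14.1 CPM (10.8 to 18.0) and 18.8 CPM (15.2 to 22.8), a mean of 16.4 ± 3.31 CPM (SD, n = 2). Mir221 was the higher of the pair in both libraries. Their ranges, each from the lower to the higher of the 2 CPM values, did not overlap. Their counting intervals did overlap in replicate 2. Together they reached 42.2 ± 2.49 CPM (SD, n = 2), from 181 and 232 counts. Neither gene had a firm place in the order: the mean put Mir221 at place 250 and Mir222 at place 267. The ranges of 7 other genes overlapped that of Mir221, and the ranges of 21 overlapped that of Mir222. Such ranges leave out counting error: Mirlet7a-1 (27.5 and 26.7 CPM) lay outside the range of Mir221 but within its counting intervals. The neighbours Mir1968 (30.1 and 22.5 CPM) and Mir3072 (29.3 and 21.6 CPM) were not separable from Mir221, nor Mir669e (16.3 and 16.7 CPM) and Mir141 (12.3 and 20.5 CPM) from Mir222.

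**Figure D1:**
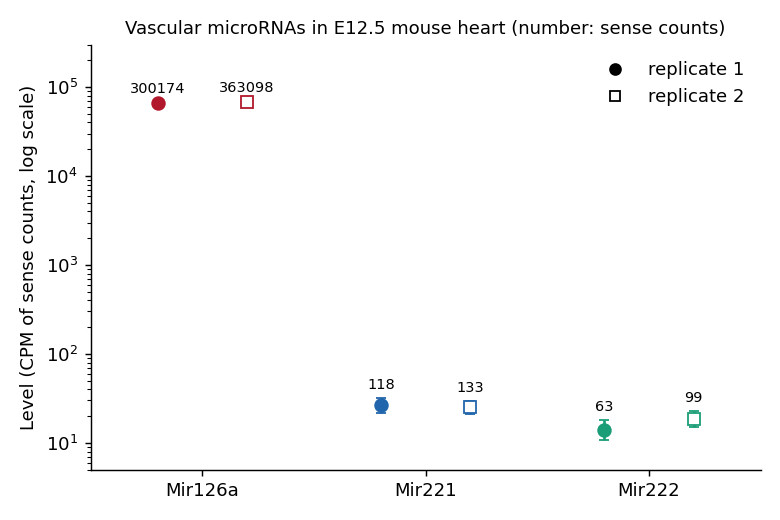
Levels of Mir126a, Mir221 and Mir222 as CPM of sense counts on a log axis, with filled circles for replicate 1, open squares for replicate 2, bars for 95% counting intervals and the sense counts above each point. Mir126a lies at 67024 and 68770 CPM, and Mir221 and Mir222 lie between 14.1 and 26.3 CPM.

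**Figure D2:**
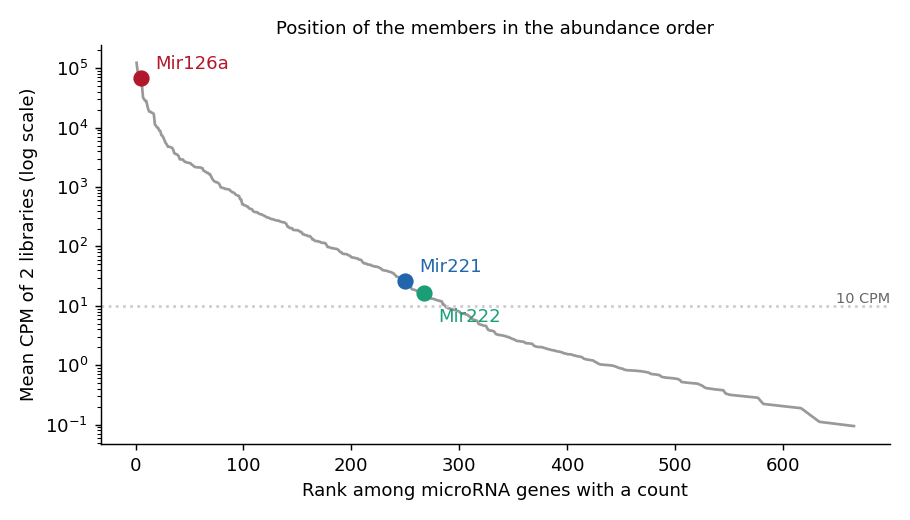
Mean CPM of the 2 libraries on a log axis against the rank of each microRNA gene with a count. Mir126a stands at place 5, and Mir221 and Mir222 at places 250 and 267, just above the dotted line of 10 CPM.

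Within replicate 1 Mir126a exceeded Mir221 by a ratio of 2544 (95% counting interval 2124 to 3073), and within replicate 2 by 2730 (2304 to 3261). The mean ratio was 2637 ± 132 (SD, n = 2), and each library's ratio lay within the counting interval of the other. The ratio of Mir126a to Mir222 was 4765 (3724 to 6201) in replicate 1 and 3668 (3012 to 4513) in replicate 2, with a mean of 4216 ± 776 (SD, n = 2). Both distances were many times the spread between replicates. An error that both libraries share would not appear in that spread and was not tested.

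The ratio of Mir221 to Mir222 was 1.87 (95% counting interval 1.37 to 2.59) in replicate 1 and 1.34 (1.03 to 1.76) in replicate 2, with a mean of 1.61 ± 0.374 (SD, n = 2). Both intervals lay above 1, and they overlapped each other. The counts of the pair were thus unequal by a modest factor that 2 libraries fixed only roughly. Ligation can differ by sequence, and its part in this ratio was not tested.

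Adjacent microRNA genes were often much less alike than Mir221 and Mir222. Among all neighbouring genes on 1 strand with less than 10 kb between them, 109 pairs had at least 10 counts for each gene. The median absolute log2 ratio of the mean levels, after adding 1 CPM, was 2.78 over these pairs, with a range of 0.049 to 10.97, and that of Mir221 and Mir222 was 0.62. Of the 109 pairs, 12 lay closer together, among them Mir296 with Mir298 at 2636 and 2734 CPM. Some pairs hold genes that share a stretch of 22 bases with another hairpin and so may lose reads, which was not tested. Among the 80 pairs without such a gene, the median was 2.62 and 8 pairs were closer. The comparison was chosen after the values were seen and describes these libraries, with no test.

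**Figure D3:**
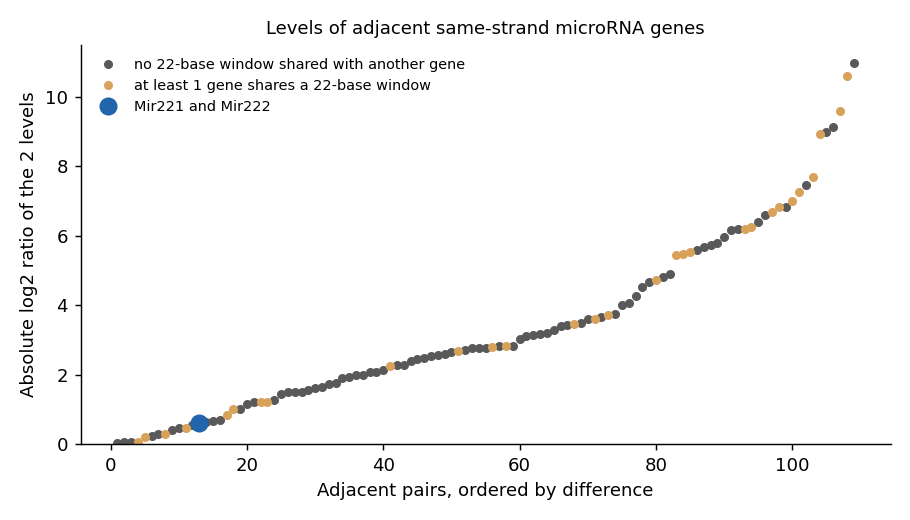
Absolute log2 ratio of the mean levels, each CPM plus 1, for 109 pairs of adjacent microRNA genes on 1 strand, in increasing order. Orange points are pairs in which a gene shares 22 bases with another hairpin, and the blue point is Mir221 with Mir222 at 0.62, near the low end.

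The level of Mir126a was nearly the same in both libraries. Its ratio of replicate 2 to replicate 1 was 1.03 (95% counting interval 1.02 to 1.03), a log2 difference of 0.037 on the scale of CPM plus 1. The interval excludes 1 by counting error alone, but the difference is small beside that of other genes. Among the 19 genes with at least 100000 counts over both libraries the median absolute log2 difference was 0.077, and 14 of them lay farther apart than Mir126a.

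Mir221 had a ratio of 0.956 (95% counting interval 0.741 to 1.24) and a log2 difference of −0.062. Mir222 had a ratio of 1.33 (0.962 to 1.86) and a log2 difference of 0.39. Both intervals include 1, so a difference was not detectable at this depth for either gene. Of the 3 members, 0 passed a 2-fold difference in either direction, beside 1.58% of the 444 genes with at least 10 counts, and 1 of them, Mir222, passed a ratio of 5 to 4 in either direction, beside 27.0% of these genes. With 10 CPM added before the logarithm instead of 1, Mir222 no longer passed that ratio, at a log2 difference of 0.26. The median log2 difference of the 3 members was that of Mir126a, beside −0.0038 over the 444 genes. Among 58 genes with 100 to 400 counts, the range in which Mir221 and Mir222 lie, 0% passed the 2-fold difference and 36.2% the ratio of 5 to 4. Of these, 52 lay farther apart between the libraries than Mir221, and 15 farther than Mir222. A share of 10.5% of the 19 deepest genes passed the ratio of 5 to 4.

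**Figure D4:**
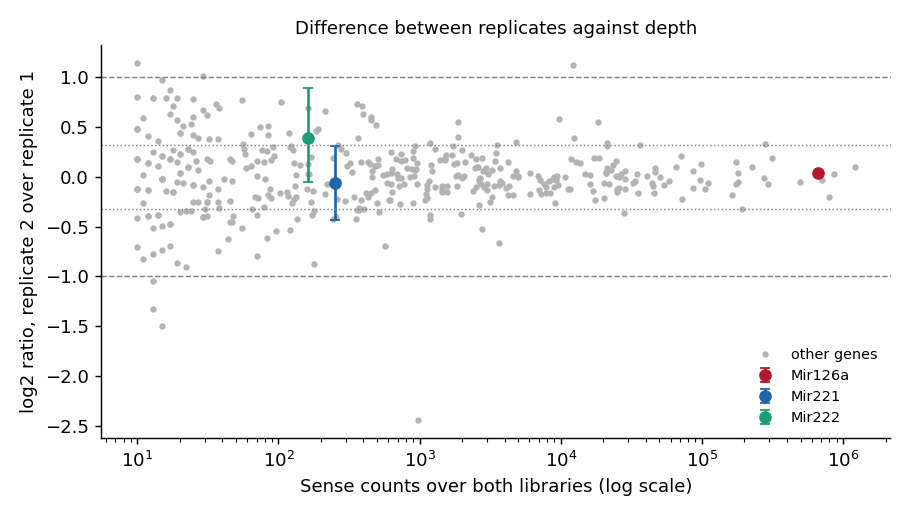
Log2 ratio of replicate 2 to replicate 1, each CPM plus 1, against the sense counts over both libraries on a log axis, for 444 genes with at least 10 counts. Bars are 95% counting intervals of the members, dashed lines mark 2-fold and dotted lines a ratio of 5 to 4: Mir126a lies at 0.037 with a very narrow interval, and the intervals of Mir221 and Mir222 include 0.

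Among the smooth muscle and cardiomyocyte marker genes, Mir143 alone stood above Mir126a, and the others lay below it by widely differing ratios. Within each library Mir126a was below Mir143, the leading smooth muscle gene, with a ratio of 0.768 ± 0.0044 (SD, n = 2). It stood above Mir208b, which lies in the myosin gene Myh7, with a ratio of 1.33 ± 0.0586 (SD, n = 2), and above Mir208a of Myh6 with a ratio of 6.87 ± 0.236 (SD, n = 2). Each of these ratios differed from 1 by more than its spread between replicates. Mir21a, known from smooth muscle and fibroblasts, was lower by a ratio of 2.41 ± 0.0616 (SD, n = 2). The cardiomyocyte gene Mir499 was lower by 31.8 ± 0.0702 and the smooth muscle gene Mir145a by 56.6 ± 3.89 (SD, n = 2 for both).

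Blood microRNAs were far below Mir126a in both libraries. Mir451a of red cell precursors had 770 and 1671 CPM, so that Mir126a exceeded it by 87.1 in replicate 1 and 41.1 in replicate 2. Mir144, from the same locus, had 156 and 140 CPM, and Mir126a exceeded it by 430 and 492. These 2 erythroid genes together took 0.0926% and 0.181% of the sense counts. Among white blood cell and platelet genes, Mir223 had 166 and 155 CPM and Mir150 had 7.59 and 8.52 CPM. Mir142 has no row, and reads opposite to Mir142b, where it is annotated, amounted to 1094 and 938 CPM. Mir223 and Mir150 together took 0.0173% and 0.0163% of the sense counts, a share that leaves out the reads of Mir142. The part of blood cells in the Mir126a level was not tested. Mir122 of hepatocytes had 181 and 32.4 CPM, and the 5 epithelial genes ranged from 16.4 CPM for Mir141 to 433 CPM for Mir429, all far below Mir126a. Levels of Mir221 and Mir222 lay below those of Mir223, Mir451a and Mir144 in both libraries, but above that of Mir150. They also lay below those of 4 of the 5 epithelial genes.

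Other microRNAs of vascular smooth muscle were much higher than Mir221 and Mir222. Mir145a, at 1130 and 1277 CPM, exceeded Mir221 by a ratio of 46.8 ± 5.54 (SD, n = 2) and Mir222 by a ratio of 74.2 ± 8.61 (SD, n = 2). For Mir21a these ratios were 1095 ± 26.7 and 1756 ± 367 (SD, n = 2), and for Mir143 over Mir221 the ratio was 3435 ± 152 (SD, n = 2). All 3 smooth muscle genes thus exceeded both members of the pair in both libraries.

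A list of 26 other microRNAs known from endothelium or vessel growth gave a wider frame, and 25 of them had a row. Of these, 24 reached 10 CPM in both libraries, beside 284 of all 1973 genes. The levels of all 25 ranged from 1.20 CPM for Mir217 to 82265 CPM for Mir322, with a median of 1307 CPM. Mir126a stood above 24 of the 25, with Mir322 (88188 and 76341 CPM) the exception. Mir221 stood above 3 of them, Mir181b-1, Mir218-1 and Mir217, and Mir222 above Mir217 alone. Mir181b-1 (16.5 and 26.7 CPM) and Mir218-1 (15.4 and 21.6 CPM) share 22 bases with other hairpins, as do Mir92-1, Mir24-2 and Mir218-2 of the list, so the levels of these 5 genes are uncertain. The range of Mir181b-1 overlapped those of Mir221 and Mir222, and that of Mir218-1 overlapped that of Mir222. Next after Mir322 in the list came Mir17 (23223 ± 1149 CPM), of the mir-17-92 cluster that is linked to vessel growth, Mir130a (18421 ± 297 CPM), Mir23a (16862 ± 1488 CPM) and Mir23b (11273 ± 368 CPM). In the middle stood Mir503 (2901 ± 77.4 CPM), Mir296 (2636 ± 141 CPM), Mir92-1 (2394 ± 139 CPM) and Mir10a (1529 ± 19.4 CPM), a Hox cluster microRNA of endothelium. The hypoxia-linked Mir210 had 964 ± 3.53 CPM, and Mir132, which is induced by growth factors in endothelium, had 90.0 ± 3.46 CPM (SD, n = 2 for all).

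Between the libraries, 0 of the 25 genes passed a 2-fold difference, beside 1.58% of all 444 genes. A ratio of 5 to 4 was passed by 4 of them, or 16.0% beside the 27.0% of all 444 genes. The median log2 difference of the list was 0.059, beside −0.0038 over all 444 genes. The 4 were Mir10b (465 and 292 CPM), Mir181b-1, Mir218-1 and Mir217, and the last 3 had 215, 183 and 12 counts over both libraries.

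**Figure D5:**
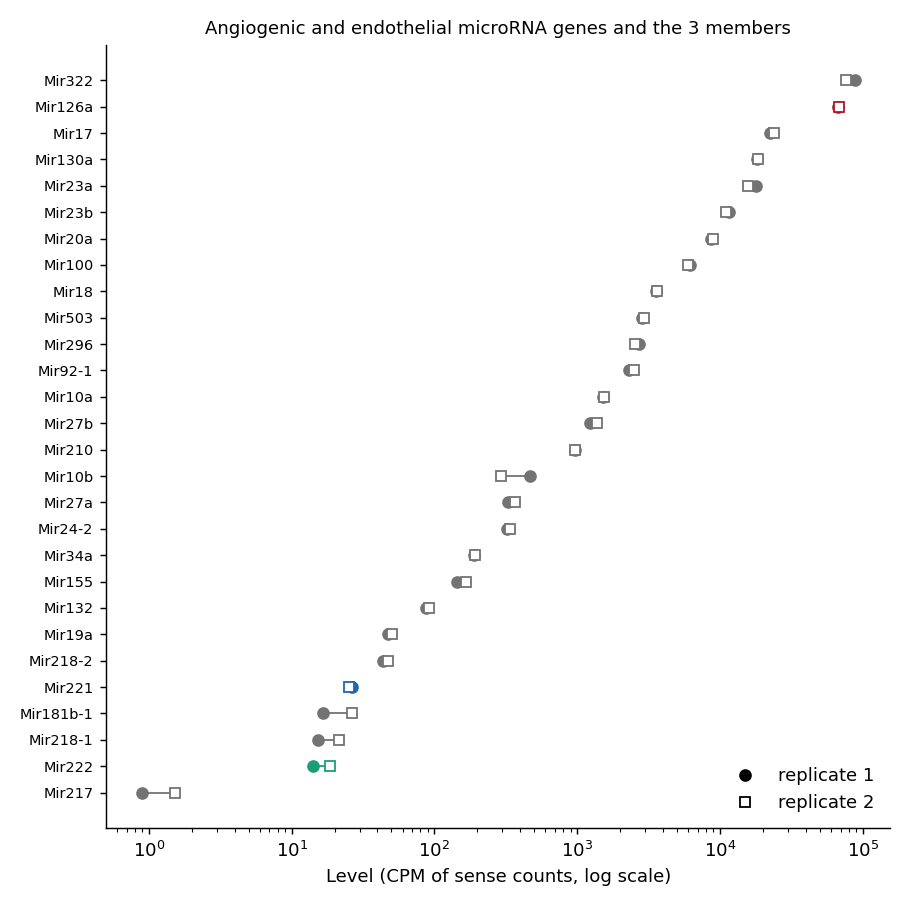
Levels of the 25 listed microRNA genes and the 3 members as CPM of sense counts on a log axis, with filled circles for replicate 1 and open squares for replicate 2. Mir126a (red) lies below Mir322 alone, and Mir221 (blue) and Mir222 (green) lie near the bottom, above Mir217.

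By the distance between log2(CPM + 1) values over the 2 libraries, the genes most like Mir126a were Mir99a (distance 0.16), Mir322 (0.42) and Mir143 (0.54). Those most like Mir221 were Mirlet7a-1 (0.10), the skeletal muscle gene Mir206 (0.14) and Mir758 (0.20), and those most like Mir222 were Mir184 (0.18), Mir1955 (0.19) and Mir141 (0.22). The measure joins genes of equal level in 2 libraries. Mirlet7a-1 belongs to an adjacent pair in which a gene shares 22 bases with another hairpin, so its level is uncertain.

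Reads on the strand opposite to a member were found at Mir126a alone among the 3. They numbered 21 in replicate 1 and 30 in replicate 2, or 0.0070% (95% counting interval 0.0043 to 0.0107%) and 0.0083% (0.0056 to 0.0118%) of the reads on either strand. Mir221 and Mir222 had 0 such counts in both libraries, which allows up to 3 counts each. With 251 and 162 sense counts in total, they were too shallow to show a share like that of Mir126a. Mir126b, annotated on the minus strand of chromosome 2 from 26591363 to 26591420 and without a row of its own, lies there. Its mature sequences in RefSeq are shown, with the seed in capitals, because the 2 strands of this hairpin encode similar microRNAs.
miR-126b-3p: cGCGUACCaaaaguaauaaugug
miR-126b-5p: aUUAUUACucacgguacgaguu
Shifted by 1 base, miR-126b-3p matches miR-126a-3p at 17 of 22 positions, and its seed is GCGUACC against CGUACCG. The reverse complement of miR-126b-5p matches miR-126a-3p at 19 of 19 overlapping positions, since the same bases of the genome encode both. Per read opposite to it, Mir126a had 13199 ± 1549 sense reads (SD, n = 2).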

How the data were processed

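Raw counts of reads per microRNA gene were deposited, with 1 table for each of 2 libraries of embryonic day 12.5 heart. The counts of the 2 libraries were not pooled. Per the descriptions deposited with the tables, reads were placed on mm10 and counted over annotation M4; which aligner and counter did so is not given in the sources used here. The count columns have no names: the authors' values were read as counts without regard to strand, sense and antisense, from their sums and sizes. The 4 opening rows that name no gene stayed out of totals. Reads that fit several places, which are in no gene's count, were 27.1% of replicate 1 and 25.3% of replicate 2. Another 18.1% and 19.1% did not map, 6.29% and 5.88% lay outside the genes on the sense strand, and 0 were ambiguous.

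Of 1973 gene rows, 1894 had a GENCODE M21 identifier on GRCm38, the assembly also called mm10. All 3 members matched the RefSeq sequence table. CPM used the sum of sense counts, with a pseudocount of 1 CPM before log2 and at least 10 counts over both libraries for differences. Differences are replicate 2 minus replicate 1. Alternatives used TMM (edgeR 4.0.16), size factors (DESeq2 1.42.0, R 4.3.3), other denominators, filters and pseudocounts, and left out each replicate. No count test was run, since there is 1 group. Python 3.11.15, numpy 2.4.6, pandas 2.3.3, scipy 1.17.1, matplotlib 3.10.9 and RNAfold 2.7.2 were used, and the calculation of ratios and intervals was tested on simulated counts.

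The members and lists were chosen with earlier results of these data known. Named genes were the members, the listed and marker genes, the genes just above and below each member, the 3 nearest by distance, microRNAs within 10 kb and those with the same seed. Mir298 was named after its value was seen.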

Additional observations from a re-analysis of the deposited data

Results flagged for a closer look

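Reads opposite to Mir126a were not part of the levels and stood above the limit that a count of 0 allows, at 4.69 and 5.68 CPM of the sense totals, a mean of 5.19 ± 0.702 CPM (SD, n = 2). Over all genes, 17 had more than 3 such counts in both libraries, and 14 of these had more than Mir126a. Among the 19 genes with at least 100000 counts, the other 18 had between 0 and 4 such counts in total, with Mir21a highest by number and Mir130a by share, at 0.0017%. Whether these reads are mature miR-126b was not tested, because the tables hold no read sequences.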

How the results depend on the processing

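No paired analysis was possible because the samples form 1 group. Of 67 alternative values for 12 results, 46 moved by less than the spread between replicates, the counting interval or, for counts of genes, 1.5 times. Leaving out 1 of 2 replicates always stays within that spread by construction. The 3 ratios between members moved by less than their SD without regard to strand. They could hardly move, since Mir221 and Mir222 had 0 counts on the opposite strand and Mir126a had 21 and 30. Under all alternatives run, the replicate difference kept its sign for each member, which a change of pseudocount cannot turn. It ran from 0.26 (pseudocount of 10) to 0.42 for Mir222, and shrank to −0.015 for Mir221 with reads that fit several places. For neither of these genes was a difference detectable, so the kept sign says little about them. A scaling on genes with 100 to 400 counts, chosen after seeing the data, gave −0.053 for Mir221 and 0.40 for Mir222.
The levels followed the denominator. With reads that fit several places added, Mir126a had 44312, Mir221 16.8 and Mir222 10.7 CPM, and the 3 together 4.43% of the total. Over all reads these were 33376, 12.7 and 8.08 CPM and 3.34%. Without the most abundant gene, Mir335, Mir126a had 77458 and Mir221 29.4 CPM, and the 3 together 7.75%. With counts of both strands, Mir126a had 64925 and Mir221 24.6 CPM, and the 3 together 6.50%. The replicate difference of Mir126a was 0.086 with reads that fit several places, 0.076 over all reads, 0.051 without Mir335 and 0.044 with both strands, each on the log2 scale.
Leaving out 1 replicate at a time gave 67024 to 68770 CPM for Mir126a, 25.2 to 26.3 for Mir221, 14.1 to 18.8 for Mir222 and 6.71% to 6.88% for their sum. The ratios ran from 2544 to 2730 (Mir126a to Mir221), 3668 to 4765 (Mir126a to Mir222) and 1.34 to 1.87 (Mir221 to Mir222).
Among genes with at least 100 counts, 2 passed 2-fold against 7 at the minimum of 10, and 45 passed a ratio of 5 to 4 against 120. With no minimum, 211 passed that ratio. The filters change the number of genes counted. Depth limits Mir221 and Mir222, which had 251 and 162 counts in total.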
